A study of Homo sapiens with 6 samples.

Results

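The genes examined are 9 genes of glycogen metabolism, found as the 18 probe sets whose deposited gene symbol is exactly PPP1R3B, PPP1R3C, PPP1R3D, PPP1R3E, GYS1, GBE1, PYGB, PYGL or UGP2, among 49293 probe sets in all. After 1 probe set was kept per gene, they are 9 of 19040 genes. The symbols were selected on earlier results of the same 6 arrays, namely log2 intensities compared over the 3 groups, in which PPP1R3C was among the largest changes. No threshold on the values was used. Their differences between groups are therefore given as descriptions, with errors and no p-values, and the word called, where it is used of them, says only on which side of the threshold of the fit a value lay.

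The arrays held total RNA of AN3-CA, a human endometrial cancer cell line, with 2 arrays labelled as biological replicates in each of 3 groups. The DMSO group received the vehicle (0.5%, as the labels give it) without ligand for 18 h. The aFGF group received DMSO with 10 ng/mL acidic fibroblast growth factor (aFGF), a ligand that activates FGF receptors. The AZD4547 group received 300 nM AZD4547, an inhibitor of FGF receptor tyrosine kinases, together with the same dose of aFGF. The labels do not state how much DMSO the AZD4547 cultures received. All cells had been cultured for 24 h beforehand and were treated in serum-free medium, and no group with AZD4547 and without aFGF was analysed here. All groups are the 1 cell line. In bulk RNA, fewer cells of a type and less RNA per cell cannot be told apart.

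Glycogen is the branched glucose polymer in which cells store sugar. UGP2 makes UDP-glucose, glycogen synthase (GYS1 outside the liver) joins the glucose units into chains, and the branching enzyme GBE1 places the branches. Glycogen phosphorylases, PYGL of liver and PYGB of brain among them, release glucose 1-phosphate. Synthase is active when dephosphorylated and phosphorylase when phosphorylated, and protein phosphatase 1 (PP1) acts on both. The PPP1R3 subunits bind PP1 and carry it to glycogen. The endometrium is a tissue known to store glycogen.

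In the probe sets that represent the genes, 4 of the 9 had the lowest mean with aFGF and the highest with AZD4547. These were PPP1R3C, PPP1R3B, GYS1 and UGP2. GBE1 had the opposite order, highest with aFGF and lowest with AZD4547. GBE1 spanned 2.40-fold between the aFGF and AZD4547 groups. PPP1R3C spanned 3.73-fold, from an aFGF signal that is not shown to be above background. In the probe sets that represent them, PYGB and PYGL differed by at most 0.07 on the log2 scale between any pair of groups, and PPP1R3D and PPP1R3E lay below the median of every array.

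The promoters of PPP1R3C, GYS1 and UGP2 are shown because these genes shared an order of groups, and that of GBE1 because its order was the opposite. RefSeq windows (GRCh38.p14) were searched for 7 of the 9 members, in 8 windows with 2 for UGP2. PPP1R3B, which also shared the order of PPP1R3C, and PPP1R3E were left out of the search. The motif counts for member windows therefore do not cover them, and whether their promoters hold the motifs was not tested. Each line holds the 250 bases before the annotated start, 5′ to 3′ on the strand of the gene. PPP1R3C lies at chr10:91633072-91633321 on the minus strand, GYS1 at chr19:48993310-48993559 on the minus strand, UGP2 at chr2:63840719-63840968 on the plus strand and GBE1 at chr3:81761646-81761895 on the minus strand. Capitals mark every match, on either strand, to the motifs searched, which were the FOXO site GTAAACA, the CRE half-site TGACG, the E-box CACGTG, the hypoxia element cores ACGTG and GCGTG, and the AP-1 site TGANTCA.
PPP1R3C: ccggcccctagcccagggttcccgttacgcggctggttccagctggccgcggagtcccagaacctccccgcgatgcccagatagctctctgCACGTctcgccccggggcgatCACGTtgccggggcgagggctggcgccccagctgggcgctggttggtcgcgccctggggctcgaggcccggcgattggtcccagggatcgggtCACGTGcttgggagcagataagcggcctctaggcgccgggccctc
GYS1: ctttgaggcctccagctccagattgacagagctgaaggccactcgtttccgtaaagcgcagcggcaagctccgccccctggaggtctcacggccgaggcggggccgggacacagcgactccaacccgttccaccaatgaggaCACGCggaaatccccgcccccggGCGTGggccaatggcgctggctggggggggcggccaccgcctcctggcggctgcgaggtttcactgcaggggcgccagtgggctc
UGP2: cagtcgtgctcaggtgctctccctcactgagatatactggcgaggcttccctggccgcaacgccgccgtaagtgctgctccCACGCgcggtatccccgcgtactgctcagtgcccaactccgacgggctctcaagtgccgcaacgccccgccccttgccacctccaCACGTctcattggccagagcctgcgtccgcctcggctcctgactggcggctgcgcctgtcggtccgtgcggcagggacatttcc
GBE1: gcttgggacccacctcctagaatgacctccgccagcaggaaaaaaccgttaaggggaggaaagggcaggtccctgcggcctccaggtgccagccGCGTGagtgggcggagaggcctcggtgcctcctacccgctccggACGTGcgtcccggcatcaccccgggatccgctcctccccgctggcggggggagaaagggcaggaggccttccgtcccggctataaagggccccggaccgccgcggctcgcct

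The window of PPP1R3C held ACGTG at positions beginning 159, 138 and 45 bases before the start. The last of these is an E-box, which reads ACGTG on both strands, so that 4 matches were counted. ACGTG was present in 18.5% of 35116 promoter windows of the same length and the E-box in 6.34%. GYS1 held GCGTG in 2 places, and GBE1 and the UGP2 window shown held ACGTG and GCGTG once each. The motifs were also found in members that were not called. PPP1R3D held an E-box, which again reads ACGTG on both strands, and TGACG in 2 places, and PYGB held GCGTG in 2 places. The second UGP2 window held GCGTG once. Of the 8 member windows 4 held ACGTG, 2 the E-box, 5 GCGTG and 1 TGACG, where GCGTG was present in 32.2% of all windows and TGACG in 21.2%. The FOXO and AP-1 letters were found in 0 of the 8 member windows, against 2.98% and 6.57% of all windows. G and C made up 67.2% to 76.4% of the member windows. The shares over all windows were not matched for this, so an excess of a motif was not tested. A match is a description of the sequence and not a site of binding.

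Values are log2 of the intensity that the authors deposited after robust multi-array averaging (RMA). They have no unit, and the level of one probe set cannot be set against that of another. Each gene is represented by its probe set with the highest mean. The array medians lay between 2.843 and 2.893, and the deposited table has no detection calls, so a level under these medians is not shown to be above background. A limma model of the 3 group means used all 6 arrays, and a gene was called at an adjusted p under 0.05 over all genes in that comparison. Each log2 difference has a standard error (SE) from this fit. In genes above the array medians, the SD of replicate differences was 0.162 in DMSO, 0.103 with aFGF and 0.119 with AZD4547.

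The labelled cell type was set against its markers. Of 10 endometrial and epithelial markers, 5 were above the median on all 6 arrays, namely EMX2, HOXA10, HOXA11, KRT18 and ESR1. The other 5 were below it on all, namely PAX8, KRT8, EPCAM, CDH1 and PGR. ESR1 (3.14 to 3.33), KRT18, PAX8 and KRT8 were represented by probe sets of the kind that can match other transcripts. With AZD4547 over aFGF, HOXA10 (log2 0.45, limma adjusted p = 0.00716) and EMX2 (0.53, adjusted p = 0.00274) rose and KRT18 fell (-0.53, adjusted p = 0.00129). KRT18 also rose with aFGF over DMSO (0.44, adjusted p = 0.00779). Of 5 fibroblast markers, COL1A2 was above the median on every array while COL1A1, DCN and LUM were below it. COL1A2 was higher than in DMSO with aFGF (0.19, limma adjusted p = 0.0458) and with AZD4547 (0.23, adjusted p = 0.0467). Without the intensity trend in the fit, 0 genes were called higher with AZD4547 over DMSO, so that COL1A2 call was lost. COL3A1, above the median on 4 arrays, fell with aFGF (-0.55, limma adjusted p = 0.00624) and rose with AZD4547 over aFGF (0.77, adjusted p = 0.000357), the same order of group means as in PPP1R3C. The summed intensity of the fibroblast list, nearly all of it from COL1A2, ran from 725 to 822 in DMSO, 875 to 879 with aFGF and 894 to 918 with AZD4547. Since levels of different probe sets cannot be compared, this sum mostly restates the COL1A2 probe set and does not weigh the markers. The part of these markers in the results was not tested. No endothelial marker, 1 of 5 leukocyte markers and 1 of 4 smooth muscle markers were above the median on all arrays.

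**Figure D1:**
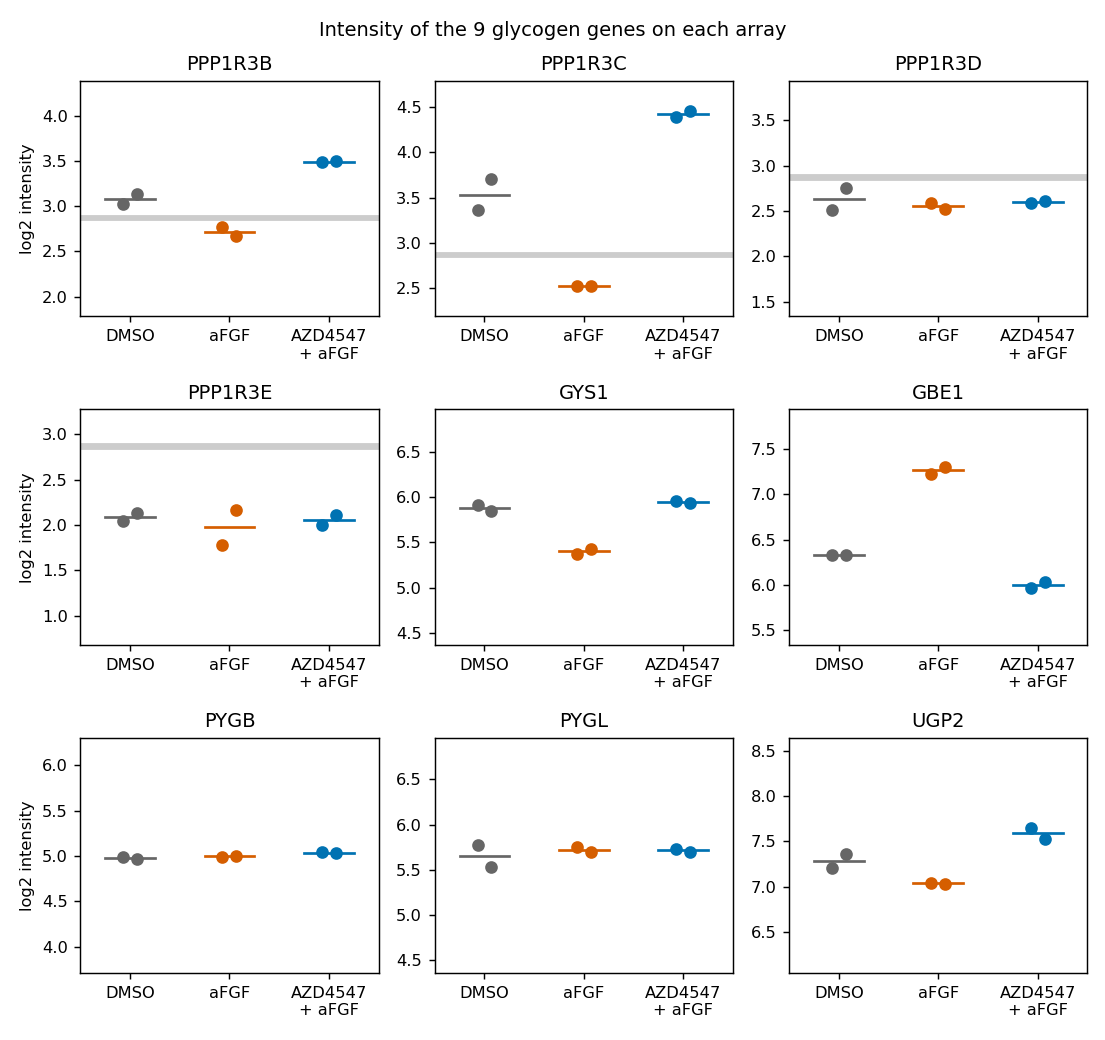
Log2 intensity of each of the 9 genes on each of the 6 arrays, by group, with 2 points per group and a line at their mean. The grey band spans the 6 array medians, and all panels cover the same range of log2 units. PPP1R3C, PPP1R3B, GYS1 and UGP2 are lowest with aFGF, GBE1 is highest with aFGF, and PPP1R3D and PPP1R3E lie under the grey band.

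Among the targeting subunits, PPP1R3C, a broadly expressed subunit also called PTG, varied most. Its log2 intensities were 3.36 and 3.70 in DMSO, 2.53 and 2.52 with aFGF, and 4.39 and 4.45 with AZD4547. The 3 groups did not overlap. The difference for aFGF over DMSO was -1.01 (SE 0.12), a 2.01-fold lower mean, and that for AZD4547 over aFGF was 1.90 (SE 0.12). The mean with AZD4547 also lay above DMSO, by 0.89 (SE 0.12) or 1.85-fold. By size these differences ranked 100th, 34th and 10th of 19040 genes. Since the signal with aFGF was under the array medians, how large the differences from it are is uncertain.

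The other probe set of PPP1R3C gave the same order of groups with a smaller upper step. Its values were 3.47 and 3.24 in DMSO, 2.81 and 2.09 with aFGF, and 3.57 and 3.59 with AZD4547. The aFGF cultures differed by 0.72 there, the widest gap between replicates in any probe set of the 9 genes. In a fit to all 49293 probe sets, 11.4%, 20.6% and 2.49% were called in the 3 comparisons. There aFGF over DMSO was -0.91 (SE 0.19) and AZD4547 over aFGF was 1.14 (SE 0.19). AZD4547 over DMSO was 0.23 with an interval of -0.19 to 0.65, against 0.89 with an interval of 0.62 to 1.17 in the first probe set. The call above DMSO with AZD4547 thus rested on 1 of 2 probe sets, and it was lost without either AZD4547 array and without the intensity trend in the fit.

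PPP1R3B, the targeting subunit best known from liver, had the same order of groups. It stood at 3.03 and 3.14 in DMSO, 2.77 and 2.67 with aFGF, and 3.49 and 3.50 with AZD4547. No values overlapped between groups, and the aFGF values lay below the array medians. The difference was -0.37 (SE 0.11) for aFGF over DMSO, 0.77 (SE 0.11) for AZD4547 over aFGF and 0.41 (SE 0.11) for AZD4547 over DMSO, the last not called. The aFGF call was lost under 10 of 15 alternatives, among them leaving out any 1 of the 6 arrays. The second probe set, of the kind that can match other transcripts, was dim on all arrays (0.79 to 1.27), and no call was made there.

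PPP1R3D and PPP1R3E, less studied targeting subunits, were dim throughout. PPP1R3D ranged from 2.51 to 2.76 over the 6 arrays and PPP1R3E from 1.78 to 2.17. Neither was called in any comparison. For PPP1R3D the 95% interval of AZD4547 over aFGF was -0.23 to 0.33, and for PPP1R3E it was -0.25 to 0.41. A second probe set of PPP1R3D, also below the medians, had the order of group means seen in PPP1R3C. Its means were 2.60 in DMSO, 2.30 with aFGF and 2.76 with AZD4547. It differed by -0.30 (SE 0.13) for aFGF over DMSO, which was not called. For AZD4547 over aFGF it differed by 0.46 (SE 0.13) and was called in the fit to all probe sets. For this last difference its 95% interval was 0.17 to 0.76. That of the first probe set in the same fit was -0.24 to 0.34, so the intervals overlap.

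**Figure D2:**
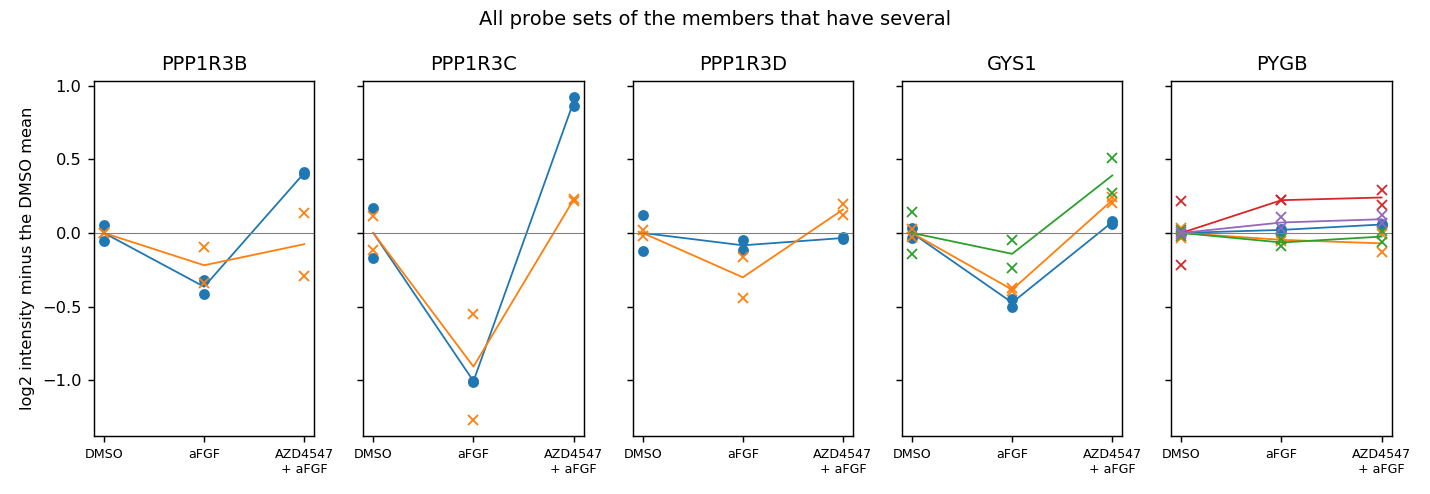
Log2 intensity minus the DMSO mean of the same probe set, for the 5 members with several probe sets, by group. Circles are the probe set that represents the gene, crosses the others, each point is 1 array, and lines join group means. Both PPP1R3C and all 3 GYS1 probe sets are lowest with aFGF, and of the 5 PYGB probe sets the one with the widest gap between replicates (0.43, in DMSO) lies 0.22 and 0.24 above its DMSO mean in the other groups.

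Of the enzymes of synthesis, UGP2 had values of 7.20 and 7.36 in DMSO, 7.04 and 7.03 with aFGF, and 7.65 and 7.52 with AZD4547. All 3 groups were apart. The log2 difference was -0.25 (SE 0.07) for aFGF over DMSO, 0.55 (SE 0.07) for AZD4547 over aFGF and 0.30 (SE 0.07) for AZD4547 over DMSO. The first call was lost under 8 of 16 alternatives and the last under 7, including in each case the fit to only the groups compared.

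GYS1, the synthase itself, had 5.91 and 5.84 in DMSO, 5.38 and 5.43 with aFGF, and 5.96 and 5.94 with AZD4547. Here the AZD4547 values lay just above DMSO and those with aFGF well below both. The difference for aFGF over DMSO was -0.47 (SE 0.07), or 1.39-fold lower, and that for AZD4547 over aFGF 0.55 (SE 0.07), or 1.46-fold higher. For AZD4547 over DMSO it was 0.07, with an interval of -0.07 to 0.22, and was not called. The other probe sets gave 0.22 (SE 0.09) and 0.39 (SE 0.14) for this last difference and 0.61 (SE 0.09) and 0.53 (SE 0.14) for AZD4547 over aFGF. For aFGF over DMSO they gave -0.39 (SE 0.09) and -0.14 (SE 0.14), the second from a dim probe set.

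GBE1 ran against UGP2 and GYS1, the other members that act in synthesis. Its values were 6.33 and 6.33 in DMSO, 7.22 and 7.31 with aFGF, and 5.97 and 6.03 with AZD4547. The replicates of a group lay within 0.08 of each other, and no groups overlapped. GBE1 was 1.91-fold higher with aFGF than with DMSO (log2 0.93, SE 0.06) and 2.40-fold lower with AZD4547 than with aFGF (log2 -1.27, SE 0.06). With AZD4547 it was also below DMSO, by a log2 difference of -0.33 (SE 0.06). That last call was lost under 6 of 16 alternatives. The GBE1 differences ranked 126th, 120th and 1098th by size among 19040 genes, and the gene has 1 probe set.

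The probe sets that represent the phosphorylases had intervals that included 0. PYGB stood at 4.98 and 4.97 in DMSO, 4.993 and 5.001 with aFGF, and 5.04 and 5.03 with AZD4547. Its 95% interval was -0.14 to 0.18 for aFGF over DMSO and -0.12 to 0.20 for AZD4547 over aFGF. Its other 4 probe sets were not called in any comparison. In one of them, at 4.33 and 4.77 in DMSO, the differences from DMSO were 0.22 (SE 0.12) with aFGF and 0.24 (SE 0.12) with AZD4547. PYGL stood at 5.78 and 5.53 in DMSO, 5.75 and 5.70 with aFGF, and 5.73 and 5.70 with AZD4547, so the DMSO values enclosed all others. Its interval was -0.12 to 0.25 for aFGF over DMSO and -0.19 to 0.17 for AZD4547 over aFGF. Differences as large as those of GBE1 or PPP1R3C in the same comparisons lay outside these intervals.

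**Figure D3:**
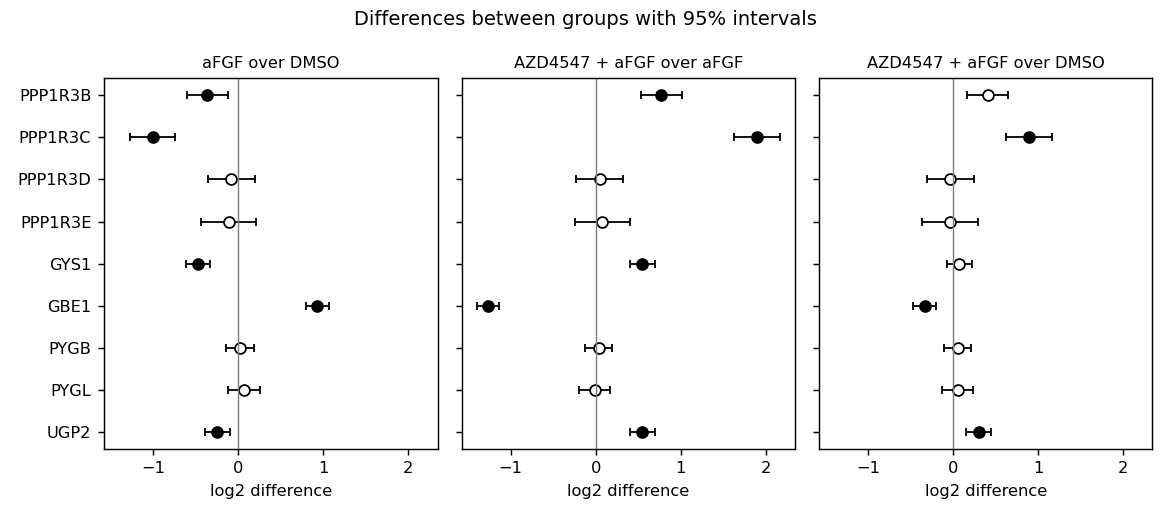
Log2 difference of each of the 9 genes in the 3 comparisons, with bars for the 95% interval of the limma fit (2 arrays per group). Filled points were called at an adjusted p under 0.05 over all genes and open points were not. PPP1R3C and GBE1 lie farthest from 0 in the comparisons that involve the aFGF group, on opposite sides, while PYGB and PYGL lie at 0.07 or less.

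Counted together, aFGF over DMSO had 1 of 9 members called higher and 4 lower, where 15.6% of all genes were called, 5.92% higher and 9.72% lower. AZD4547 with aFGF over aFGF had 4 called higher and 1 lower, where 25.7% of genes were called, 15.6% higher and 10.1% lower. AZD4547 with aFGF over DMSO had 2 called higher (PPP1R3C and UGP2) and 1 lower (GBE1), where 4.68% of genes were called, 2.28% higher and 2.41% lower. The members were chosen with these comparisons known, and the comparisons share arrays, so nothing is read from the counts. The groups compared did not overlap in 6, 7 and 6 of the 9 members, against 50.5%, 60.6% and 44.8% of all genes. The median log2 difference of the members was -0.11, 0.08 and 0.06 in the 3 comparisons, against -0.01, -0.02 and -0.01 over all genes. The median size was 0.25, 0.55 and 0.07, against 0.12, 0.16 and 0.11. Without AZD4547 replicate 1, or without replicate 2, no member was called above or below DMSO, and 43 or 29 genes were called in all.

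Another 37 genes of the pathway, in 4 lists that hold none of the 9, were all measured. With aFGF 2 of them rose and 8 fell against DMSO (27% passed, median log2 difference -0.05). With AZD4547 12 rose and 2 fell against aFGF (37.8% passed, median 0.11), and 2 rose and 0 fell against DMSO (5.41% passed, median 0.01). The shares over all genes are those given above. Without the intensity trend in the fit, or without either aFGF array, 5 of the 37 passed for aFGF over DMSO.

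Of 8 genes of precursor supply and chain initiation, 1 rose and 3 fell with aFGF, and 3 rose and 1 fell with AZD4547 against aFGF. In each comparison 50% of the list passed, against 15.6% and 25.7% of all genes. PGM1, the main phosphoglucomutase, which links glucose 6-phosphate and glucose 1-phosphate, fell with aFGF (log2 -0.40, SE 0.08, limma adjusted p = 0.0049) and rose with AZD4547 (0.61, SE 0.08, adjusted p = 0.00013). PGM2, a related mutase, moved the other way (0.36, SE 0.07, adjusted p = 0.003, and -0.46, SE 0.07, adjusted p = 0.00032). Hexokinase HK2 fell with aFGF (-0.28, SE 0.06, adjusted p = 0.01). The primer protein glycogenin, GYG1, rose with AZD4547 (0.30, SE 0.07, adjusted p = 0.0052). The calls of PGM1, PGM2 and HK2 with aFGF were lost without the intensity trend and, among others, without aFGF replicate 1 (PGM1, HK2) or 2 (PGM2, HK2), and that of GYG1 without the trend, aFGF replicate 1 or AZD4547 replicate 1. Against DMSO none of the 8 passed with AZD4547, and the largest value was 0.23 (SE 0.12, adjusted p = 0.36) in PGM2L1.

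The catalytic subunits of PP1 and the other targeting subunits formed a list of 6. Of these 0 passed with aFGF, against 15.6% of all genes. The largest value was that of the catalytic subunit PPP1CB at -0.16 (SE 0.06, limma adjusted p = 0.10). With AZD4547 over aFGF only PPP1CB passed in this list (0.18, SE 0.06, adjusted p = 0.048), which did not hold once any 1 of the aFGF or AZD4547 arrays was removed. That is 16.7% of the list, against 25.7% of all genes. Over DMSO 0 passed, and PPP1CC had the largest value, 0.16 (SE 0.05, adjusted p = 0.099). The muscle targeting subunit PPP1R3A was below the median on all arrays.

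Breakdown genes included the largest changes among the 37. Of 11, 2 fell with aFGF and 5 rose with AZD4547 over aFGF, with none in the other direction. These are 18.2% and 45.5% of the list, against 15.6% and 25.7% of all genes, so the share with aFGF was near that of all genes. PHKB, the regulatory beta subunit of phosphorylase kinase, fell with aFGF (log2 -0.76, SE 0.08, limma adjusted p = 1e-04) and rose 2.24-fold with AZD4547 (1.16, SE 0.08, adjusted p = 1.6e-06). SLC37A4, the glucose 6-phosphate transporter of the endoplasmic reticulum, fell with aFGF (-0.60, SE 0.06, adjusted p = 0.00011) and rose with AZD4547 (0.53, SE 0.06, adjusted p = 8.8e-05). With AZD4547 PHKB also rose against DMSO (0.41, SE 0.08, adjusted p = 0.018), which did not hold once any 1 of the aFGF or AZD4547 arrays was removed or the trend was left out.

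Among 12 kinases and quality control genes, 1 rose and 3 fell with aFGF, and 3 rose and 1 fell with AZD4547 over aFGF. In each comparison 33.3% of the list passed, against 15.6% and 25.7% of all genes. EPM2A, the glycogen phosphatase laforin, fell with aFGF (log2 -0.69, SE 0.13, limma adjusted p = 0.0032) and rose with AZD4547 (0.67, SE 0.13, adjusted p = 0.002), at levels below the array medians throughout. PRKAB2, an AMP-activated kinase subunit with a glycogen-binding module, fell (-0.49, SE 0.08, adjusted p = 0.0015) and rose (0.58, SE 0.08, adjusted p = 0.00021) likewise. Its calls were lost when all its probe sets were averaged (-0.19 and 0.24). PRKAA2, a catalytic subunit of the same kinase, passed with aFGF from a very dim level (-0.44, SE 0.12, adjusted p = 0.034), and this call did not survive the removal of any 1 array. PRKAG2, a gamma subunit, fell with AZD4547 over aFGF (-0.41, SE 0.08, adjusted p = 0.0028). Over DMSO 0 passed, with the largest value in PRKAA2 (-0.32, SE 0.12, adjusted p = 0.18).

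GYS1, GBE1, UGP2 and PPP1R3C are known to be induced by low oxygen in cell lines, so a list of 15 hypoxia-induced genes is set beside them. The list was chosen with earlier results of these data known, so nothing is read from how many of its genes passed. Of its genes 12 were above the median on all arrays, while the shares over all genes include dim genes. With aFGF 3 of the 15 rose and 5 fell (53.3% passed against 15.6% of all genes, median log2 difference -0.21). With AZD4547 over aFGF 9 rose and 3 fell (80% passed against 25.7%, median 0.39). BHLHE40, a transcriptional repressor, and ADM, a vasodilator peptide, rose with aFGF (1.59, SE 0.11, limma adjusted p = 4.1e-06, and 0.87, SE 0.06, adjusted p = 3.6e-06) and fell with AZD4547 (-1.91 and -0.79), so that both were highest with aFGF, as GBE1 was. The glucose transporter SLC2A1 fell with aFGF (-0.55, SE 0.07, adjusted p = 0.00026), a call lost when its probe sets were averaged, and ANKRD37 rose with AZD4547 (0.72, SE 0.11, adjusted p = 0.00054), a call lost in the same way. Over DMSO 3 rose and 0 fell (20% passed against 4.68%), BNIP3 by 0.40 (SE 0.06, adjusted p = 0.0051), EGLN1 by 0.33 (SE 0.06, adjusted p = 0.011) and P4HA1 by 0.30 (SE 0.06, adjusted p = 0.015), each lost without either AZD4547 array and without the trend. The part of these genes in the results of the 9 genes was not tested.

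The genes whose pattern over the 6 arrays was most like that of PPP1R3C were found by the root mean square difference of log2 intensities, each gene centred on its own mean. In order they were TP53INP1 (0.15), RET (0.16), ARID5B (0.16), DDR2 (0.18) and ETV1 (0.18). All 5 stood between -1.23 and -0.92 on the log2 scale for aFGF over DMSO and between 1.53 and 1.83 for AZD4547 over aFGF. When all probe sets of a gene were averaged, the values were smaller for TP53INP1 (-0.48 and 0.80) and RET (-0.49 and 0.77). With aFGF, RET (2.20 and 2.09) and ARID5B (2.54 and 2.83) lay under the array medians, so how large their differences are is uncertain. The measure was not scaled, so it selects genes with changes of like size. TP53INP1 is a stress-induced protein of autophagy, RET and DDR2 are receptor tyrosine kinases, and ARID5B and ETV1 are DNA-binding regulators of transcription. Of the 9 glycogen genes PPP1R3B was nearest to PPP1R3C, at 0.47 and in 296th place among all genes, and GBE1 was farthest, at 1.31.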

How the data were processed

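Expression was measured on 6 arrays of AN3-CA cells, with biotin-labelled cRNA made from 500 ng of total RNA per the labels' protocols. Per the submitters' processing notes, intensities come from RMA, with no version given. The deposited intensity values are linear, and log2 was taken with no pseudocount. The sources used here do not give the array type. The authors' deposited table also holds group means, a ratio of each aFGF group over DMSO and a p-value of unstated test, none of which was used. Symbols were updated through Entrez identifiers, which matched a RefSeq table (GRCh38.p14) for 47089 of 47340 probe sets with 1 symbol. Probe sets with several symbols or none stayed out of the fit to genes.

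Each gene was represented by its brightest single-symbol probe set. The 3 group means were estimated in limma 3.58.1 (R 4.3.3; eBayes with an intensity trend) from all 6 arrays, with two-sided tests and Benjamini-Hochberg adjustment over 19040 genes per comparison. Precision is limited by the number of arrays (median SE 0.117). Nothing but the label says that replicates came from separate cultures, so errors may be technical in part.

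The members and the gene lists were chosen with earlier results of these data known. The genes named are the 9 members, per list and comparison up to 3 called genes with the largest changes (or the largest value where none was called), and the 5 genes most like PPP1R3C. All genes of the endometrial and epithelial list and of the fibroblast list are named. Which of their changes are described was chosen after their values were seen. A result that the rule takes is not reported here. The 16 alternatives are described in the closing section. The background correction could not be varied from RMA values.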

Additional observations from a re-analysis of the deposited data

How the results depend on the processing

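Under 16 alternatives (15 for genes left out as dim), no called difference of the 9 genes changed sign, which is a description and no independent support, since they were chosen on these arrays. PPP1R3C for aFGF over DMSO ran from -1.18 to -0.84 and GBE1 from 0.89 to 0.97. With an array left out, the lone array of its group is assumed to vary like the other groups. The samples were not treated as paired by replicate number. Deviations correlated at 0.06 (DMSO and aFGF), 0.14 (DMSO and AZD4547) and -0.06 (aFGF and AZD4547), and an effect shared by replicate number was not tested. A fit with the replicate block called 3302, 5161 and 1201 genes in the 3 comparisons, against 2979, 4894 and 892 in the main fit. It called 5, 5 and 3 members, changing no call of a member. The cause of the changes below was not tested.

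Leaving out 1 array at a time gave, for aFGF over DMSO, 1147 to 3448 genes, 3 to 4 members, 5 to 13 other pathway genes and 3 to 8 hypoxia-induced genes. For AZD4547 with aFGF over aFGF it gave 3046 to 5667 genes, 5 members, 9 to 16 other pathway genes and 8 to 12 hypoxia-induced genes. For AZD4547 with aFGF over DMSO it gave 29 to 1556 genes, 0 to 3 members, 1 to 4 other pathway genes and 0 to 4 hypoxia-induced genes. Without the intensity trend, aFGF over DMSO gave 1489 genes, 5 other pathway genes and 3 hypoxia-induced genes, and AZD4547 with aFGF over DMSO gave 10 genes, with 0 members, 0 other pathway genes and 0 hypoxia-induced genes. With only the groups compared in the fit, aFGF over DMSO gave 3 members and 5 hypoxia-induced genes, and AZD4547 with aFGF over DMSO gave 217 genes, with 1 member, 1 other pathway gene and 1 hypoxia-induced gene. Median centring gave 3 members for aFGF over DMSO. Averaging the probe sets of a gene gave 5 hypoxia-induced genes there. Testing all probe sets called 5640 and 10178 probe sets in the first and second comparisons. The series matrix values were identical to the profile table.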
